A study of Macaca fascicularis with 16 samples.

Results

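P2RX1 and 8 other genes of extracellular nucleotide signalling were followed along the aorta of the cynomolgus monkey (Macaca fascicularis). They are the ATP-gated channels P2RX1, P2RX4 and P2RX7, the G protein-coupled receptors P2RY1, P2RY2, P2RY6 and P2RY14, and the ectonucleotidases ENTPD1 and NT5E. Each was found by its symbol, which matched 1 NCBI GeneID, and the 9 genes are 9 of the 32846 rows of the count table. All 9 passed the filter on low counts. The genes were chosen by pathway around P2RX1, with the CPM (counts per 1e6 counts of the library, after scaling) of these genes by region already known, and so were in part selected on those levels. The levels by region are therefore given as a description for all 9 genes, with no p-value. How many passed a threshold is stated beside the share over all genes, and again by setting where the processing is compared. Nothing is read from these counts.

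RNA sequencing was done on 16 aortic libraries from normal young monkeys, all labelled baseline, with 4 libraries each from the infrarenal, suprarenal, descending and ascending aorta. The labels give no sex, exact age or number of animals. They number the libraries 1 to 4 in every region but do not say what the number stands for, so the errors given here measure the spread between libraries only. A library is a piece of the vessel wall with all its cells, and in such bulk RNA a smaller number of cells of one type and less RNA per cell cannot be told apart.

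ATP and other nucleotides are released by sympathetic nerves, endothelium, platelets and stressed cells. P2X receptors open as cation channels when ATP binds, while P2Y receptors act through G proteins and answer to ATP, ADP, UTP, UDP or UDP-sugars. Ectonucleotidases on the cell surface break the nucleotides down to adenosine, which acts on its own receptors. In arteries, P2X1 on smooth muscle is known to carry the fast constriction caused by ATP from sympathetic nerves.

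Total counts per library, in units of 1e6, ran from 14.4 to 21.41. Infrarenal replicate 1 stood apart from the other libraries. Its scaling factor was 0.736 against 0.977 to 1.08 elsewhere, ribosomal protein genes held 7.65% of its counts against 3.33% to 5.2% elsewhere, and its 8 smooth muscle markers summed to 94800 CPM against 21200 to 43900 in the other libraries. The smooth muscle markers were high in every library, as the tissue label implies. Across all 11 marker lists, 2 of 54 tested genes, both on the pericyte list, passed in the comparison of the infrarenal region with the rest. Over all genes tested the share was 2.98%. Of the 8 endothelial markers none passed. All 8 were higher in the infrarenal region than the mean of the other 3 regions (median 0.56 on the log2 scale). The infrarenal (682 to 2490 CPM) and suprarenal (409 to 3080 CPM) sums of these markers overlapped. Their sum varied widely between libraries of the same region, at 2490 CPM in infrarenal replicate 3, 3080 in suprarenal replicate 3 and 1730 in ascending replicate 4, against 327 to 1120 CPM in the other 13.

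P2RX1 (GeneID 102146852), the fast-desensitizing P2X channel of smooth muscle and platelets, had the steepest regional difference of the 9 genes. The infrarenal libraries 1 to 4 had 230, 246, 164 and 121 CPM. The suprarenal libraries had 9.46, 111, 20.3 and 1.48 CPM, the descending libraries 8.80, 5.96, 1.58 and 1.77 CPM, and the ascending libraries 2.0, 3.33, 0.908 and 4.22 CPM. All 4 infrarenal libraries lay above all 12 others, and the single library that came near them was suprarenal replicate 2.

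The mean was 190 ± 58.1 CPM over infrarenal libraries, 35.5 ± 50.8 over suprarenal libraries, 4.53 ± 3.49 over descending libraries and 2.62 ± 1.46 over ascending libraries (SD, n = 4 each). The infrarenal aorta exceeded the mean of the other 3 regions by 4.66 on the log2 scale (SE 0.64), a fitted 25.3-fold difference. That mean was taken over log2 levels, so the fold is not a ratio of the CPM means above. Descending minus ascending was 0.79 (SE 0.93), within its error, and the ranges of those 2 regions overlapped. Suprarenal minus descending was 2.98 (SE 0.93) with overlapping ranges, and infrarenal minus suprarenal was 2.42 (SE 0.89) without overlap.

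**Figure D1:**
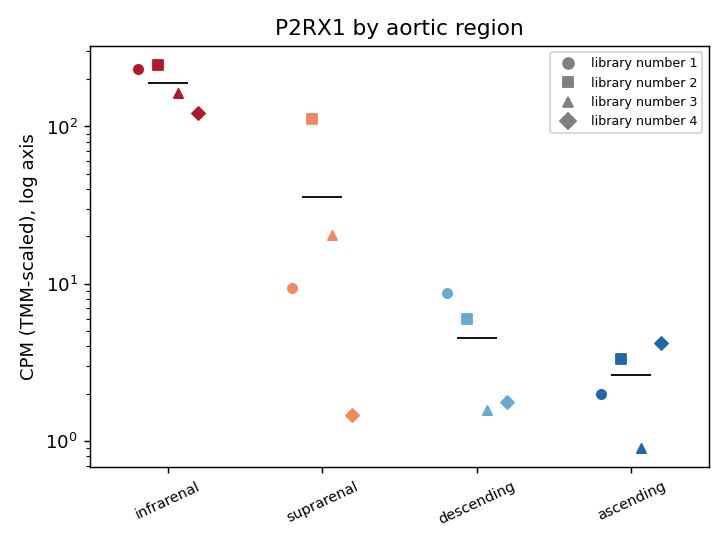
P2RX1 in TMM-scaled CPM (log axis) in each of 16 libraries, by region; symbols give the library number and black lines the means. The infrarenal libraries sit between 121 and 246 CPM, above every other library, while the suprarenal libraries spread from 1.48 to 111 CPM.

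The suprarenal region was the widest for P2RX1. Without suprarenal replicate 2 the infrarenal minus suprarenal difference was 4.19 and the suprarenal minus descending difference 1.20, so how the difference divides between those 2 steps depends on 1 library. The difference from the mean of the other 3 regions was 5.25 without it and 4.56 without infrarenal replicate 1. Within regions, P2RX1 had a pooled SD of 1.5 log2 units, more than 98.3% of all tested genes, whose median was 0.43. Suprarenal replicate 2 was the highest of the 4 suprarenal libraries for 125 of the 218 genes called higher in the infrarenal aorta (57.3%), and for 18.8% of all tested genes.

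The ratio of P2RX1 to MYH11, the smooth muscle myosin heavy chain, does not depend on the scaling of the libraries. It was 34.3, 32.8, 28.8 and 16 P2RX1 counts per 1000 MYH11 counts in infrarenal libraries 1 to 4. In the suprarenal libraries it ranged from 0.137 to 11.8, in the descending from 0.155 to 0.751 and in the ascending from 0.0895 to 1.06. On this scale, too, the infrarenal libraries did not overlap the others, and infrarenal replicate 1 lay with its group. Summed MYH11 counts were lowest in the infrarenal region, at 432190 against 628553, 733364 and 655499 (suprarenal, descending, ascending), which raises the infrarenal ratio. ACTA2 went the other way, with 560615 against 415127, 367828 and 397324. These sums include infrarenal replicate 1, whose 8 smooth muscle markers summed to 94800 CPM. The other infrarenal libraries had 39300, 30000 and 33300 CPM, so the ACTA2 excess may rest on that library. Of the 8 smooth muscle markers, 5 were higher and 3 lower in the infrarenal region than the mean of the other 3 regions. None passed. Only MYH11 was used as a denominator.

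P2RX1 is also abundant in platelets and neutrophils, so the defining genes of those cells were read in the same libraries. PPBP, a platelet chemokine gene, had 13 counts in all over the 4 infrarenal libraries, against 1 over the suprarenal, 0 over the descending and 2 over the ascending libraries. Of the platelet glycoprotein genes, GP1BA had 4 counts in the infrarenal region and 0 elsewhere, GP6 had 8 over the infrarenal libraries against 1, 2 and 0 in suprarenal, descending and ascending order, and GP9 had 1 count in all, in the ascending region. These few counts were thus mostly infrarenal, but they came from few libraries. Of the 16 libraries, PPBP was at 0 in 11, GP9 in 15, GP1BA in 14 and GP6 in 10. ITGA2B, the platelet integrin gene, had 82 counts over the infrarenal libraries against 95, 106 and 150, and TREML1 had 32 against 36, 33 and 55. The 6 platelet genes, most of whose counts were from ITGA2B and TREML1, summed to 1.77 to 2.55 CPM in the infrarenal, 1.12 to 2.78 in the suprarenal, 1.72 to 2.57 in the descending and 2.78 to 4.01 in the ascending libraries. None of the 5 neutrophil genes found passed the filter on low counts, and their sum ranged from 0.482 to 0.983 CPM in the infrarenal libraries and from 0.303 to 3.43 CPM in the others. The part of platelets in the P2RX1 levels was not tested.

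The other 2 P2X genes did not follow P2RX1. P2RX4 (GeneID 102120732), a channel of endothelium and macrophages that also occurs in smooth muscle, had 38.5, 18.6, 20.7 and 17.8 CPM in the infrarenal libraries. In the other regions it ranged from 16.7 to 25.6 CPM (suprarenal), 16.3 to 20.3 CPM (descending) and 21.6 to 30.3 CPM (ascending). Each region overlapped the next in the order of means, while the descending libraries lay wholly below the ascending ones. The difference of infrarenal from the rest, 0.18 (SE 0.19), turned to -0.14 without infrarenal replicate 1.

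P2RX7 (GeneID 101865374), the low-affinity ATP channel known from macrophages and inflammasome activation, had low counts. It had 0.540, 2.35, 3.01 and 1.70 CPM in the infrarenal libraries and 1.20 to 4.16 CPM in the other 12. Its 2 highest libraries were ascending replicate 4 (4.16 CPM) and suprarenal replicate 3 (4.06 CPM), and its difference of infrarenal from the rest was -0.33 (SE 0.40), or -0.03 without infrarenal replicate 1. Summed macrophage markers covered 107 to 269 CPM in the infrarenal libraries and 117 to 318 CPM in the others.

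Of the P2Y receptors, P2RY2 (GeneID 102123171), a receptor for ATP and UTP known from endothelium, had 7.40, 3.07, 9.63 and 4.75 CPM in the infrarenal libraries. It had 2.41, 2.20, 8.19 and 3.07 CPM in the suprarenal, 2.81, 2.53, 2.97 and 2.66 CPM in the descending and 2.32, 1.73, 2.12 and 6.52 CPM in the ascending libraries. Its mean was highest in the infrarenal region (0.93 above the rest, SE 0.39), but the regions overlapped. P2RY1 (GeneID 102138938), a receptor for ADP, had 0.694, 5.42, 11.4 and 6.0 CPM in the infrarenal libraries and 1.33 to 7.36 CPM in the others, with a difference of 0.59 (SE 0.49), which was 0.96 without infrarenal replicate 1 and 0.06 without infrarenal replicate 3.

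P2RY1 and P2RY2 shared their highest libraries. Both were highest within their region in infrarenal replicate 3, suprarenal replicate 3, descending replicate 3 and ascending replicate 4, and P2RX7 was highest in 3 of those 4. Infrarenal replicate 3, suprarenal replicate 3 and ascending replicate 4 are the 3 libraries with the highest summed endothelial markers. In the same order, adipocyte markers (2410, 2160 and 477 CPM) were also highest within their region in these libraries. So were lymphocyte markers (5.18, 8.69 and 3.68 CPM) and neutrophil markers (0.983, 3.43 and 2.41 CPM). The other marker lists were not highest in all 3. In the descending region, replicate 3 had the highest endothelial sum as well (872 CPM). Adipocyte and neutrophil sums peaked in descending replicate 1 (1800 and 2.44 CPM), and the lymphocyte sum in descending replicate 4 (2.99 CPM). The part of any of these cell types in the P2RY1, P2RY2 and P2RX7 levels was not tested.

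P2RY6 (GeneID 102125133), the UDP receptor, had 5.94, 2.47, 2.69 and 1.58 CPM in the infrarenal libraries and 2.55 to 5.21 CPM in the others. Its difference of -0.27 (SE 0.32) was -0.76 without infrarenal replicate 1, the library where it was highest. P2RY14 (GeneID 102124784), the UDP-glucose receptor, had 2 to 44 counts per library. It had 0.463 to 1.08 CPM in the infrarenal, 0.680 to 2.01 in the suprarenal, 1.39 to 2.33 in the descending and 0.121 to 2.66 in the ascending libraries. All 4 descending libraries lay above all 4 infrarenal ones, while the suprarenal and ascending libraries overlapped both. Descending minus ascending was 0.90 (SE 0.65), and 2.13 without ascending replicate 4. Library 4 was the highest for P2RY14 in every region.

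**Figure D2:**
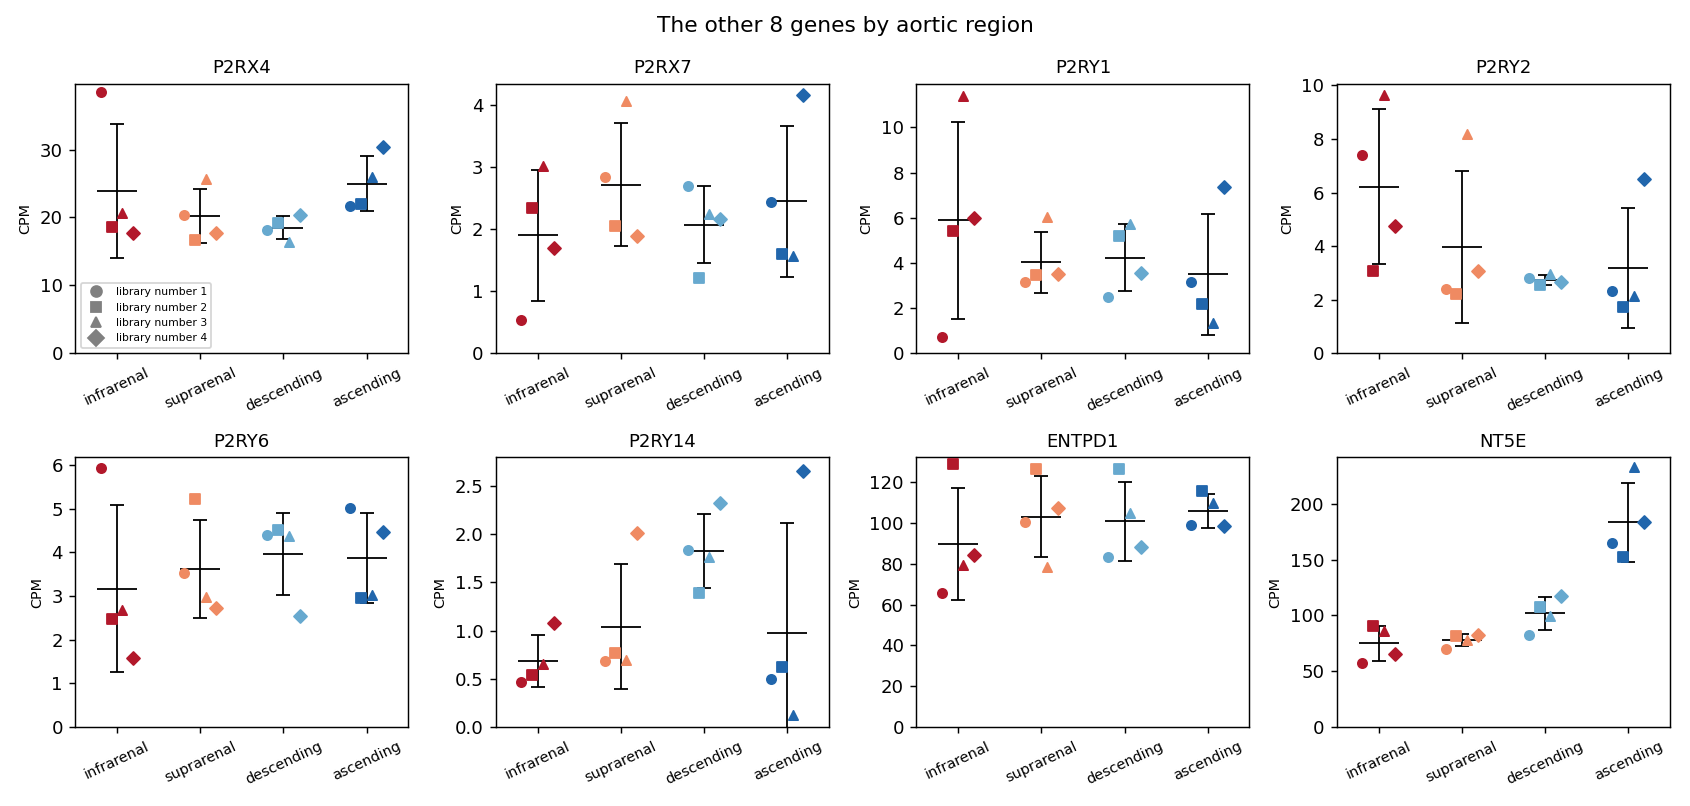
CPM of the other 8 genes in each of 16 libraries, by region; symbols give the library number, wide lines the mean and error bars 1 SD (n = 4). NT5E is highest in the 4 ascending libraries (152 to 233 CPM); the ranges of the other 7 genes overlap between neighbouring means.

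Of the enzymes, ENTPD1 (CD39, GeneID 102132860), which converts ATP and ADP to AMP, was even along the vessel. It averaged 89.7 ± 27.4 CPM over infrarenal libraries, 103 ± 19.8 over suprarenal libraries, 101 ± 19.6 over descending libraries and 106 ± 8.37 over ascending libraries (SD, n = 4 each). The regions overlapped at every step, and the infrarenal difference was -0.20 (SE 0.17). Library 2 was its highest in all 4 regions, with 116 to 129 CPM.

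NT5E (CD73, GeneID 102114976), which makes adenosine from AMP, had its regional means in the opposite order to P2RX1. It had 57.8, 90.2, 85.9 and 65.7 CPM in the infrarenal, 70.2, 81.9, 78.2 and 82.4 in the suprarenal, 82.5, 107, 99.9 and 118 in the descending and 165, 152, 233 and 184 in the ascending libraries. All 4 ascending libraries lay above the other 12, the descending libraries lay just above the suprarenal ones (lowest descending 82.5, highest suprarenal 82.4 CPM), and the infrarenal and suprarenal libraries overlapped. The largest step was descending minus ascending, at -0.85 (SE 0.17), then suprarenal minus descending at -0.38 (SE 0.17) and infrarenal minus suprarenal at -0.06 (SE 0.17). Infrarenal minus the mean of the other 3 regions was -0.60 (SE 0.15), and -0.49 without infrarenal replicate 1.

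The ratio of NT5E to ENTPD1 counts, which needs no scaling, was also highest in the ascending region. It was 0.859 ± 0.166 over infrarenal libraries, 0.778 ± 0.154 over suprarenal libraries, 1.03 ± 0.212 over descending libraries and 1.74 ± 0.339 over ascending libraries (SD, n = 4 each). The ascending libraries had 1.32 to 2.12 and the descending ones 0.847 to 1.34, so those 2 regions met at 1 library each. Both enzymes varied less within regions than most genes, with pooled SDs of 0.24 for NT5E and 0.29 for ENTPD1 on the log2 scale. Fibroblasts also carry NT5E, and 6 fibroblast markers summed to 2490 to 3630 CPM in the infrarenal, 1260 to 5090 in the suprarenal, 2170 to 3990 in the descending and 959 to 3180 in the ascending libraries. None of the 6 passed, and their part in the NT5E levels was not tested.

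For all 9 genes together, P2RX1 and NT5E passed an adjusted p of 0.05 in the edgeR fit for any difference among the 4 regions, against 2.02% of all 15926 genes tested. The same 2 passed for infrarenal against the mean of the other 3, P2RX1 as higher (1.37% of all genes) and NT5E as lower (1.61%), beside 2.98% for both directions. The 9 differences had a median of -0.20, beside 0.03 over all genes, with 4 higher and 5 lower in the infrarenal region. P2RX1 alone had all infrarenal libraries above the others, which 0.471% of all genes did. Since the genes were chosen with these levels known, nothing is read from these counts.

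The library number offers a comparison that the choice of the genes did not use. None of the 9 genes passed an edgeR test of any difference among the 4 numbers with region in the model, against 4.46% of all genes tested. ENTPD1 and P2RY14 had the smallest values, each with an adjusted p of 0.137, and they were the 2 members with an unadjusted p under 0.05. The other 7 had adjusted p-values from 0.367 (P2RY2) to 0.795 (P2RX7). DESeq2 called ENTPD1 and P2RY14, among 2394 of the 15926 tested.

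The list of other purinergic genes held 35 symbols, of which 33 matched a row and 22 passed the filter on low counts. This list, too, was chosen with earlier results of these data known. The regional counts and p-values of its genes are therefore a description, not an independent test. In the infrarenal region against the rest, 3 of the 22 fell in the edgeR test (1.61% of all genes did) and 0 rose (1.37% of all genes did). By sign alone, 14 had a lower and 8 a higher infrarenal value, and the median difference was -0.19, beside 0.03 over all genes. The genes that fell were ENPP1, ADORA2B and GJA1, an enzyme, an adenosine receptor and a connexin.

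ENPP1 (GeneID 102133778) splits extracellular ATP into AMP and pyrophosphate, an inhibitor of mineral deposition. It had 42.7, 32.1, 49.2 and 59.8 CPM in the infrarenal, 180, 108, 62.5 and 192 in the suprarenal, 176, 221, 235 and 255 in the descending and 210, 250, 234 and 149 in the ascending libraries. All infrarenal libraries lay below all others, with suprarenal replicate 3 the nearest. It fell by 2.01 on the log2 scale (SE 0.27, edgeR adjusted p = 0.000772), and the test of any regional difference gave an adjusted p of 0.00287. Unlike NT5E, it did not differ between the 2 thoracic regions beyond their spread, with 222 ± 33.3 CPM over descending libraries and 211 ± 44.2 over ascending libraries (SD, n = 4 each).

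GJA1 (connexin 43, GeneID 101867099), which forms gap junctions and hemichannels that can release ATP, had 374, 438, 474 and 513 CPM in the infrarenal libraries. It had 682 to 1170 CPM in the suprarenal, 872 to 1500 in the descending and 754 to 1530 in the ascending libraries, all above the infrarenal ones. It fell by 1.24 (SE 0.22, edgeR adjusted p = 0.00434, and 0.0165 for any regional difference). Of the 22 tested genes, ENPP1 and GJA1 were the 2 with all infrarenal libraries below the others, which 0.904% of all genes were.

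ADORA2B (GeneID 102123462), the low-affinity adenosine receptor, had 2.08, 1.26, 1.57 and 2.21 CPM in the infrarenal libraries. It had 5.81, 1.82, 4.70 and 4.43 CPM in the suprarenal, 3.12 to 7.20 in the descending and 4.2 to 6.96 in the ascending libraries. The overlap with the infrarenal range came from suprarenal replicate 2 alone, the library where P2RX1 was also nearest to the infrarenal level. It fell by 1.43 (SE 0.32, edgeR adjusted p = 0.0242), but did not pass the test of any regional difference (edgeR adjusted p = 0.116). The infrarenal call was lost with limma voom (adjusted p = 0.0732), without infrarenal replicate 2 (0.106) and without infrarenal replicate 3 (0.0797).

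**Figure D3:**
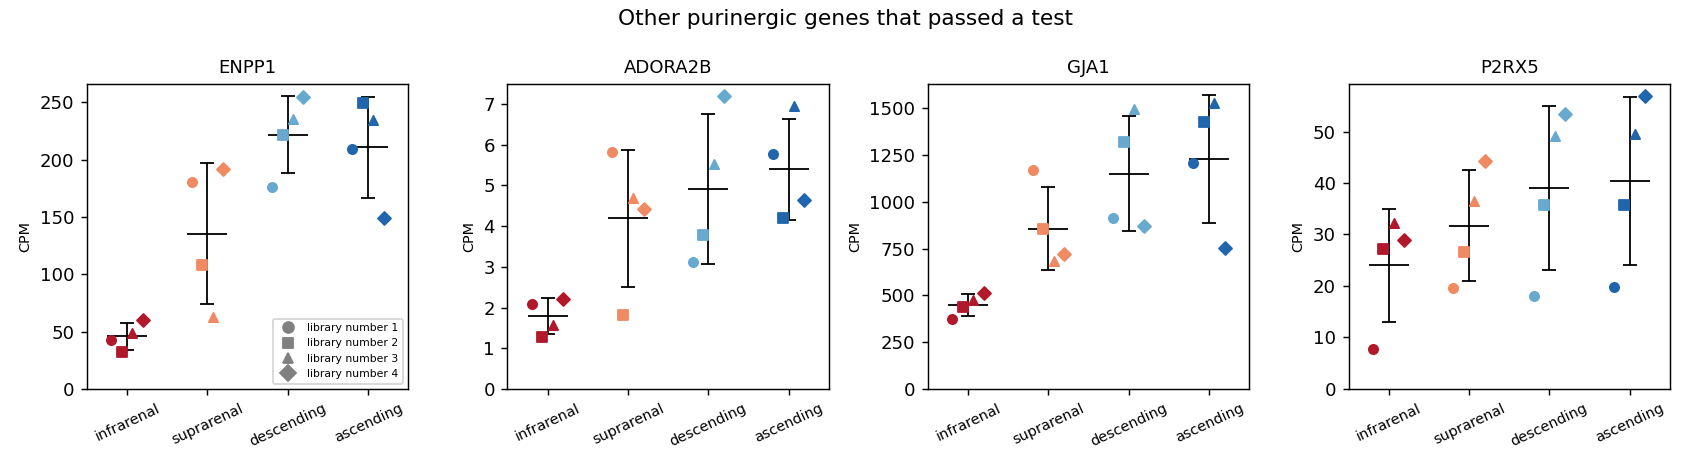
CPM of ENPP1, ADORA2B, GJA1 and P2RX5 in each of 16 libraries, by region; symbols give the library number, wide lines the mean and error bars 1 SD (n = 4). ENPP1 and GJA1 are below all other libraries in the infrarenal region, and P2RX5 is lowest in library 1 of every region.

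The other adenosine receptors did not pass. ADORA1, ADORA2A and ADORA3 had differences of 0.17 (SE 0.54), 0.59 (SE 0.51) and -0.37 (SE 0.46). Of the tested P2Y receptors, P2RY11 had a difference of 0.98 (SE 0.41, edgeR adjusted p = 0.290), and P2RY12 and P2RY13, the ADP receptors of platelets and macrophages, had -0.35 and -0.54. P2RX2, P2RX3 and P2RX6 had 6, 20 and 8 counts in all 16 libraries together and were not tested, so the P2X genes above the filter were P2RX1, P2RX4, P2RX5 and P2RX7.

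P2RX5 (GeneID 102142153), a P2X channel of muscle, did not differ by region beyond its spread, with 24.0 ± 11 CPM over infrarenal libraries, 31.7 ± 10.8 over suprarenal libraries, 39.1 ± 15.9 over descending libraries and 40.4 ± 16.4 over ascending libraries (SD, n = 4 each). It was the 1 gene of the 22 that passed the edgeR test of library number (adjusted p = 0.00236), a share near the 4.46% of all genes. Library 1 had 7.79 to 19.7 CPM over the 4 regions, library 2 had 26.6 to 35.7, library 3 had 32.2 to 49.5 and library 4 had 28.9 to 56.9. Library 1 was the lowest in every region. The call held in all 21 other settings in which it was tested (adjusted p up to 0.0140).

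Of the remaining enzymes, ENTPD2 and ENTPD3, which break down ATP, had differences of -0.40 (SE 0.20) and 0.73 (SE 0.61), and neither passed. The adenosine-clearing genes ADA (0.07) and ADK (-0.34), the nucleoside transporter SLC29A1 (0.17), the ATP release channel PANX1 (-0.23) and the vesicular nucleotide transporter SLC17A9 (0.14) did not pass either. Over the 19 tested genes without a call the differences ran from -0.62 for P2RX5 to 0.98 for P2RY11, and the lowest edgeR adjusted p among them was 0.290.

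**Figure D4:**
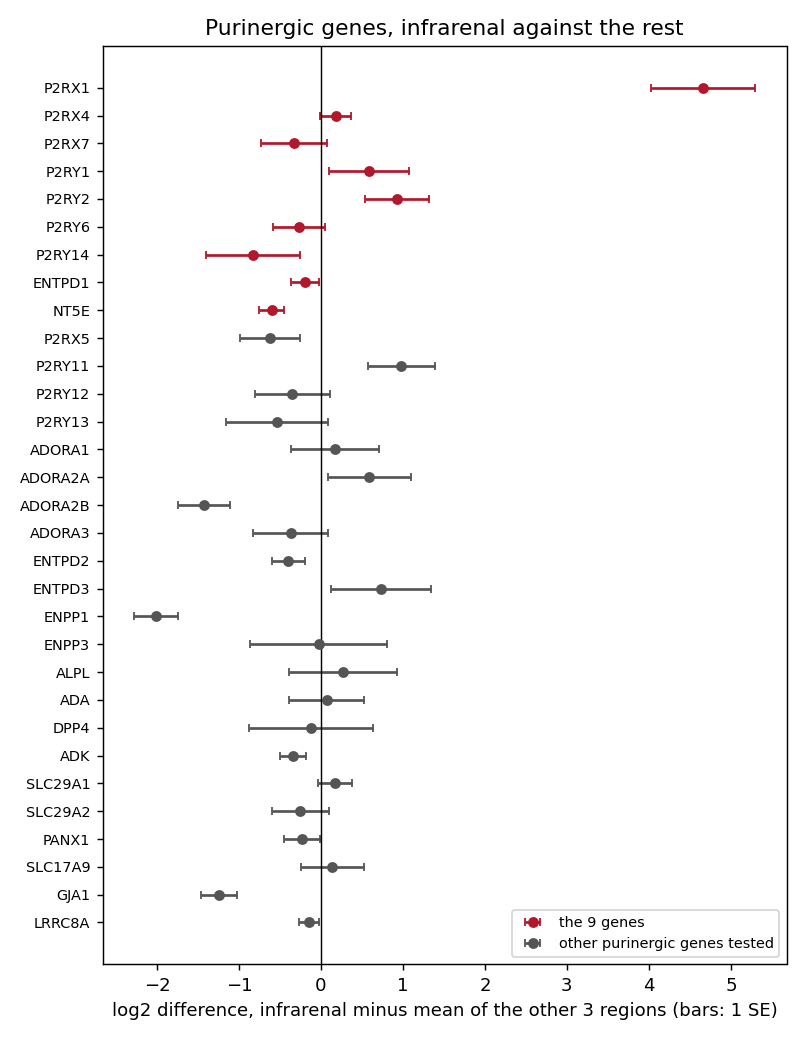
Log2 difference of infrarenal minus the mean of the other 3 regions (x axis, bars 1 SE) for the 9 genes (red) and the 22 other purinergic genes tested (grey). P2RX1 stands at 4.66, and ENPP1, ADORA2B and GJA1 lie at -2.01, -1.43 and -1.24.

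The genes whose pattern was most like that of P2RX1 were sought among 12442 genes that had a symbol and averaged 1 or more in log2 CPM. Likeness was the root mean square difference of log2 CPM, centred on each gene's mean over the 16 libraries. The 8 nearest were CTNNA3 (1.04), KCNAB1 (1.15), NKAIN2 (1.25), HOXD9 (1.32), COL8A1 (1.39), HOXA10 (1.40), KCNT2 (1.47) and ANGPT2 (1.53), where the median of all candidates was 2.79 and a flat profile would give 2.77. CTNNA3 encodes an alpha-catenin, KCNAB1 and KCNT2 potassium channel proteins, NKAIN2 a membrane protein that interacts with the sodium pump, COL8A1 a short-chain collagen of vessels, ANGPT2 an angiopoietin, and HOXD9 and HOXA10 positional transcription factors.

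CTNNA3 averaged 38.3 ± 8.66 CPM over infrarenal libraries, 5.52 ± 5.36 over suprarenal libraries, 1.46 ± 0.566 over descending libraries and 1.04 ± 0.474 over ascending libraries (SD, n = 4 each). COL8A1 averaged 603 ± 128 CPM over infrarenal libraries, 129 ± 84.5 over suprarenal libraries, 55.2 ± 10.9 over descending libraries and 41.2 ± 25.6 over ascending libraries (SD, n = 4 each). The 8 were taken for their likeness over these same libraries, so their high infrarenal level and their suprarenal peak follow in part from the choice. Suprarenal replicate 2 was the highest suprarenal library for 5 of the 8, beside 57.3% of the genes called higher in the infrarenal aorta, among them NKAIN2 with 27.5 CPM against at most 5.57 in the other 3. CTNNA3, HOXD9 and ANGPT2 were highest in another suprarenal library. The infrarenal differences of the 8 ran from 3.18 (SE 0.32) for COL8A1 to 5.15 (SE 0.34) for HOXA10, on both sides of the 4.66 of P2RX1.

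**Figure D5:**
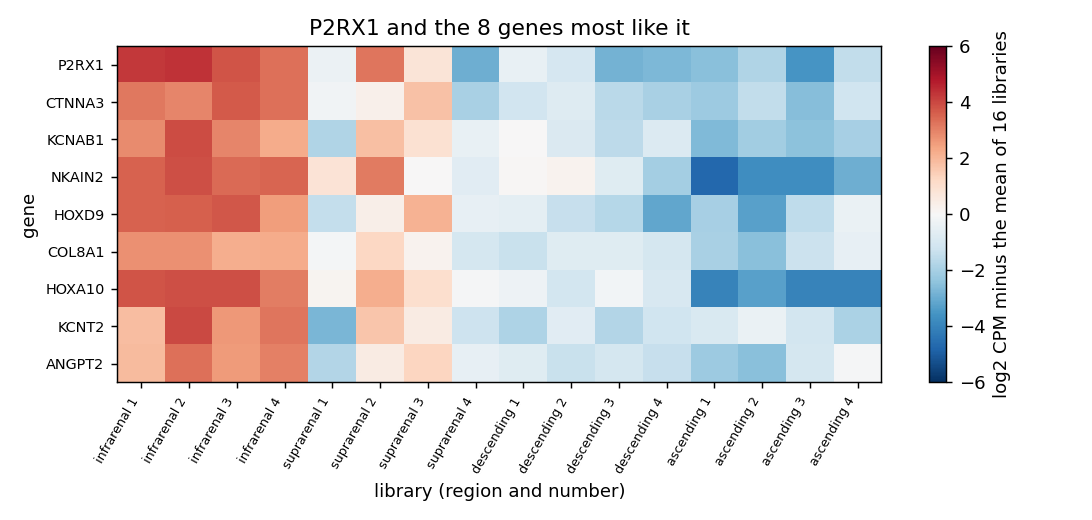
Log2 CPM of P2RX1 and the 8 genes most like it, minus each gene's mean over the 16 libraries (colour), with genes in rows and libraries in columns from infrarenal to ascending. All 9 rows are high in the 4 infrarenal columns, and suprarenal 2 is the highest of the suprarenal columns for P2RX1 and 5 of the other 8.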

How the data were processed

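Counts per NCBI GeneID were deposited by the authors for 16 aortic libraries. Per the submitters' processing notes, the tools were fastp, HISAT2 2.0.5 and featureCounts 1.5.0-p3; the genome build was not given in the sources used here, nor was the annotation. Strand use in counting is not stated. The series table held the same values as the 16 library files. Symbols came from RefSeq's annotation of T2T-MFA8v1.1 (names and gene order only) and matched 24609 of 32846 rows (74.9%). The 24 rows of mitochondrial RNA names held 0.0568% of counts.

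Genes were kept with filterByExpr (minimum count 10, minimum total 15), leaving 15926. TMM factors and edgeR 4.0.16 quasi-likelihood tests in R 4.3.3 were used on all 16 libraries with region as the term, with Benjamini-Hochberg adjustment over all genes and a threshold of 0.05. CPM are TMM-scaled, and log2 CPM used a prior count of 2. Levels were not compared between genes, since no transcript lengths were used. No library repeated another (chi-square over its degrees of freedom at least 27.5 within regions).

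The members and gene lists were chosen with earlier results of these data known. The rule for named genes was all 9 members, every other purinergic gene called, and the 8 genes nearest to P2RX1. PPBP, GP9, GP1BA, GP6, MYH11, P2RX5, and other genes without a regional call were chosen after their values were seen. The cell marker lists (smooth muscle, macrophage, endothelial, platelet, neutrophil, lymphocyte, mast, fibroblast, adipocyte, pericyte and Schwann) held 73 genes, of which 68 matched. Alternatives were RLE factors, library totals, no filter, DESeq2 1.42.0, limma voom (limma 3.58.1), a replicate block and each library left out.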

Additional observations from a re-analysis of the deposited data

Results flagged for a closer look

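In 52 groups of 4 libraries, made of the 9 genes and 4 other purinergic genes in each region, 6 held a library far from the other 3 by Dixon's criterion, which chance alone passes in about 1 group in 20. P2RX4 had 38.5 CPM in infrarenal replicate 1, against 17.8 to 20.7 CPM in the other infrarenal libraries. P2RY1 had 6.03 CPM in suprarenal replicate 3, against 3.15 to 3.48 CPM, and P2RY2 had 8.19 CPM in the same library, against 2.20 to 3.07 CPM. P2RY2 also had 6.52 CPM in ascending replicate 4, against 1.73 to 2.32 CPM. P2RY6 had 2.55 CPM in descending replicate 4, against 4.37 to 4.52 CPM. P2RY14 had 2.01 CPM in suprarenal replicate 4, against 0.680 to 0.765 CPM.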

How the results depend on the processing

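P2RX1 kept its infrarenal difference in all 22 other settings, between 4.51 and 5.25. With DESeq2, 825 genes were called for any regional difference (322 in the edgeR fit), 852 for the infrarenal region (474) and 2394 for the library number (711), and 4 other purinergic genes for any regional difference (2) and 2 members for the library number (0) were called. With library totals alone and with no filter, 1 member passed in the infrarenal comparison in place of 2, NT5E being the one lost, as it also was without infrarenal replicate 1, 3 or 4, suprarenal replicate 2 or 4, or descending replicate 2, 3 or 4. Genes higher and lower in the infrarenal region numbered 218 and 256, and 159 and 305 with library totals. Without 1 library the counts ran from 213 to 477 for any regional difference, from 267 to 568 for the infrarenal region, from 372 to 1100 for the library number, from 1 to 3 for other purinergic genes with any regional difference, and from 1 to 2 for members in the infrarenal comparison. The lowest regional and infrarenal counts came without infrarenal replicate 2. The cause was not tested. With the library number as a replicate block 532 genes were called for any regional difference and 680 for the infrarenal region, with 3 and 4 other purinergic genes in place of 2 and 3. The labels do not say what the number stands for, so it was not used as a pairing in the reported fit. Of the 24 same-number pairs, 19 had deviations correlated over 0.1 (lowest -0.173). The median was 0.34, against -0.09 for different numbers, and 15 of 16 libraries lay closest on average to their own number, which is a hint from the data, not from the design.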

Other observations

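Gene order was read from the T2T-MFA8v1.1 annotation. None of the 3 nearest tested coding genes on either side of P2RX1 passed the edgeR test in the infrarenal region. The share over all tested genes was 2.98%, so the absence of a call among so few genes says little. CAMKK1 had a difference of -0.11 (SE 0.44) and ATP2A3, a calcium pump of the endoplasmic reticulum, -0.21 (SE 0.17), next to 4.66 for P2RX1 itself. ATP2A3 averaged 246 CPM in the infrarenal and 289, 279 and 288 CPM in the suprarenal, descending and ascending regions. No annotated gene overlapped P2RX1 or NT5E. Beside NT5E, the transcription factor gene TBX18 averaged 95.6 CPM in the infrarenal and 74.4, 71.7 and 40 CPM in the other regions, an order opposite to that of NT5E, without passing the edgeR test (0.68, SE 0.20, adjusted p = 0.0983). These neighbours were chosen after the values of P2RX1 and NT5E were seen.

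The marker lists not yet given had these ranges of summed CPM. Lymphocyte markers summed to 0.848 to 5.18 CPM in infrarenal libraries and 0.125 to 8.69 CPM in the other 12, and mast cell markers to 2.75 to 5.06 CPM in infrarenal libraries and 1.45 to 35.5 CPM in the other 12. Adipocyte markers summed to 99.3 to 2410 CPM in infrarenal libraries and 62.8 to 2160 CPM in the other 12. All 5 adipocyte markers had a higher infrarenal value than the mean of the other 3 regions (median log2 difference 1.0). None passed the test. That mean includes the ascending libraries, which summed to 62.8 to 477 CPM, against 212 to 1800 CPM in the descending ones. Infrarenal replicate 3 had 2410 CPM, and the other infrarenal libraries 99.3, 281 and 489 CPM. Pericyte markers, 2 of 5 of which were called, summed to 2740 to 4750 CPM in infrarenal libraries and 1220 to 7140 CPM in the other 12. Of these 5 markers, 4 were higher and 1 lower in the infrarenal region than the mean of the other 3 (median log2 difference 0.53). RGS5 held most of the counts in the pericyte sum, which thus says little about the other markers on that list. Schwann cell markers summed to 259 to 367 CPM in infrarenal libraries and 275 to 663 CPM in the other 12.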
